A study of Mus musculus with 15 samples.

Results

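Polycomb repressive complex 1 (PRC1) was followed through 9 of its genes in nuclei of the mouse ventral tegmental area, the midbrain region whose dopamine neurons project to the nucleus accumbens and cortex. The genes were taken by symbol from the table of gene counts: Cbx2, Cbx6, Cbx7, Cbx8, Ring1, Rnf2, Bmi1, Phc1 and Phc2. All 9 were found among the 35976 genes listed, and all 9 passed the filter on low counts in each comparison. The animals were male heterozygous DAT-Cre mice (B6.SJL-Slc6a3tm1.1(cre)Bkmm/J), 8 to 12 weeks old, whose Cre recombinase is made by cells that use the dopamine transporter gene. Every group had received AAV5-DIO-KASH-HA in the ventral tegmental area, a Cre-dependent virus that puts an HA-tagged protein on the nuclear envelope, so that a nucleus counts as dopaminergic here if it carried HA and as non-dopaminergic if it did not. Tissue of 2 mice made 1 sample. All mice were first trained for 7 days to press a lever for food. Dopaminergic nuclei were collected at the end of that training (n = 4 samples), after further intravenous cocaine at 0.3 mg/kg per infusion for 5 days and 1.0 mg/kg for 10 days (maintenance, n = 3), and after the same cocaine schedule followed by 21 days of abstinence in the home cage (labelled craving, here called abstinence, n = 4). Non-dopaminergic nuclei came from food-trained mice alone (n = 4). There was no group kept without cocaine for as long as the abstinence group, so time and cocaine history cannot be told apart.

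PRC1 is an enzyme complex that attaches ubiquitin to histone H2A and compacts chromatin, and it is known for keeping developmental genes silent in differentiated cells, neurons included. Its catalytic core pairs a RING protein, encoded by Ring1 or Rnf2, with a PCGF protein such as Bmi1. In canonical PRC1 a chromobox (CBX) protein reads the H3K27 methylation left by Polycomb repressive complex 2, and a polyhomeotic (PHC) protein lets complexes polymerise. Variant PRC1 carries RYBP or YAF2 in place of CBX and PHC, and one form of it is brought to unmethylated CpG islands by KDM2B.

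Some members lie close together in the genome (coordinates of RefSeq on GRCm38.p6, where the submitters' processing notes name mm10 and GRCm38). Cbx6 (chr15:79823898-79834333) and Cbx7 (chr15:79915804-79971143) are both on the minus strand with 81470 bases between them, and Cbx2 (chr11:119023019-119031275) and Cbx8 (chr11:119036303-119040913) are 5027 bases apart. Cbx6 lies wholly inside the annotated span of Npcd (chr15:79786351-79834333), and the end of Cbx7 overlaps Apobec3, so reads of these pairs may have been divided between them in counting. Npcd held 0 counts in the 11 dopaminergic libraries and in non-dopaminergic replicate 1, and 1, 815 and 514 counts in replicates 2, 3 and 4 of that group.

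The promoters are shown for the genes on which the comparisons turn, the nearby genes Cbx6 and Cbx7, the catalytic subunit Ring1 and, as the promoter with the fewest CG pairs among the single-promoter members, Phc1. Each line gives the 250 bases before a start in the RefSeq promoter table, read 5′ to 3′ on the gene's strand (minus for all 4), with CG dinucleotides in capitals. They span chr15:79834334-79834583, chr15:79932647-79932896, chr17:34024681-34024930 and chr6:122340228-122340477 in that order. The stretch of Cbx7 lies before a start inside the gene's annotated span, and the other 3 lie directly before the gene's outer end.
Cbx6: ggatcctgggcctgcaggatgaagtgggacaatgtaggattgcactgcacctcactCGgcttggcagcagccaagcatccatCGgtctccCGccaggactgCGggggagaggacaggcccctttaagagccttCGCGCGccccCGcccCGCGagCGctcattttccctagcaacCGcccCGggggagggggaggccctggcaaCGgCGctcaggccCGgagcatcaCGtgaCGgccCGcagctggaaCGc
Cbx7: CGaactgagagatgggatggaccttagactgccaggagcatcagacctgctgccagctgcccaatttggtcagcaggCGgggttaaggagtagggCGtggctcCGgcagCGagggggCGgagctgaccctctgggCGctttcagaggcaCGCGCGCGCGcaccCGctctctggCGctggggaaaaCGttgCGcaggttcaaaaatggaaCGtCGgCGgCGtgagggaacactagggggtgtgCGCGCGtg
Ring1: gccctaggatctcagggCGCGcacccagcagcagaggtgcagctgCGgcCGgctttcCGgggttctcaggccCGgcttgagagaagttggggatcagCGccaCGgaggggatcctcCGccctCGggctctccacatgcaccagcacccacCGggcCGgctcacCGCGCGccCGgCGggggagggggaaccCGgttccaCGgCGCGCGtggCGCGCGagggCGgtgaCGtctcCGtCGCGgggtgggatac
Phc1: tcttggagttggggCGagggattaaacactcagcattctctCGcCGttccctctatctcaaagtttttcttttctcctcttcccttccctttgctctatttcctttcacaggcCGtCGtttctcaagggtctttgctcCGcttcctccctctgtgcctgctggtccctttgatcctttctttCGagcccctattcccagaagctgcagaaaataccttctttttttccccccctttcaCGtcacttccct
These stretches hold 20 CG pairs for Cbx6, 23 for Cbx7, 30 for Ring1 and 8 for Phc1, where the median over 32851 promoters of the same table was 6 and the upper quartile 16. The table held 10 promoters for 8 of the members (Cbx2 was not matched), 3 of them for Phc2, and 9 of the 10 had more CG pairs than that median. The letters GGGCGG, a GC box, stood on at least 1 strand in 8 of the 10, against 32.7% of all promoters, and the promoter of Phc1 was 1 of the 2 without it. The promoters of Cbx6 and Cbx7 held 68.0% and 64.8% G or C, and those of Ring1 and Phc1 73.6% and 49.6%. At abstinence the fold changes of Cbx6 and Cbx7 had opposite signs against food training and were both positive against maintenance. None of these had an edgeR adjusted p under 0.05.

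Library totals ran from 25813697 to 59046618 counts. The dopamine transporter gene Slc6a3 stood at 1777 to 4484 CPM (counts scaled to a common library total, with edgeR's TMM factors over the 15 libraries) in dopaminergic and at 76.8 to 119 CPM in non-dopaminergic libraries. The summed level of 7 oligodendrocyte markers was 8317 to 21500 CPM in the non-dopaminergic nuclei, which the labels call neurons, against 993 to 2621 CPM in dopaminergic nuclei, so the former are a mixture of cell types. In 4 libraries, namely the 3 of maintenance and non-dopaminergic replicate 2, the deviation of log2 CPM from each gene's mean fell with the GC content of the transcript more steeply than in any other, with slopes of -0.0378 to -0.0224 per percent GC against -0.0167 to 0.0204 in the other dopaminergic and 0.0209 to 0.0322 in the other non-dopaminergic libraries. The labels name no batch. The members' values at maintenance are given also with a correction for GC content and with a term for these 4 libraries. In nuclei sorted in bulk, fewer nuclei with a transcript and less transcript per nucleus cannot be told apart.

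In dopaminergic nuclei of food-trained mice the catalytic subunit Ring1, the chromobox gene Cbx6 and the polyhomeotic gene Phc2 had the highest levels per transcript length among the members. Per kb of the longest GENCODE M21 transcript, Ring1 stood at 21.2 ± 4.66 CPM (SD, n = 4), Cbx6 at 16.3 ± 3.98, Phc2 at 10.9 ± 3.16 and Rnf2, the other catalytic subunit, at 6.25 ± 1.76. The ranges of mean ± SD of neighbours in that order overlapped, down to Rnf2, whose range did not reach that of the next gene. Below it came Phc1 at 2.46 ± 1.43, Cbx7 at 1.62 ± 1.17, Cbx2 at 1.26 ± 1.26, Bmi1 at 1.2 ± 1.2 and Cbx8 at 0.804 ± 1.52 CPM per kb, none apart from its neighbour. Ring1 was first in all 4 groups and Phc2 among the first 3 in each. Phc1 ranked 4th in non-dopaminergic nuclei, at 7.72 ± 0.998 CPM per kb, and Cbx6 ranked 4th at maintenance, at 5.67 ± 1.96 CPM per kb. The scarce members were uneven between replicates: Cbx2 had 0 counts in 1 of 4 food-trained, 2 of 3 maintenance and 2 of 4 abstinence libraries, and Cbx8 in 2 of 4 food-trained libraries.

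**Figure D1:**
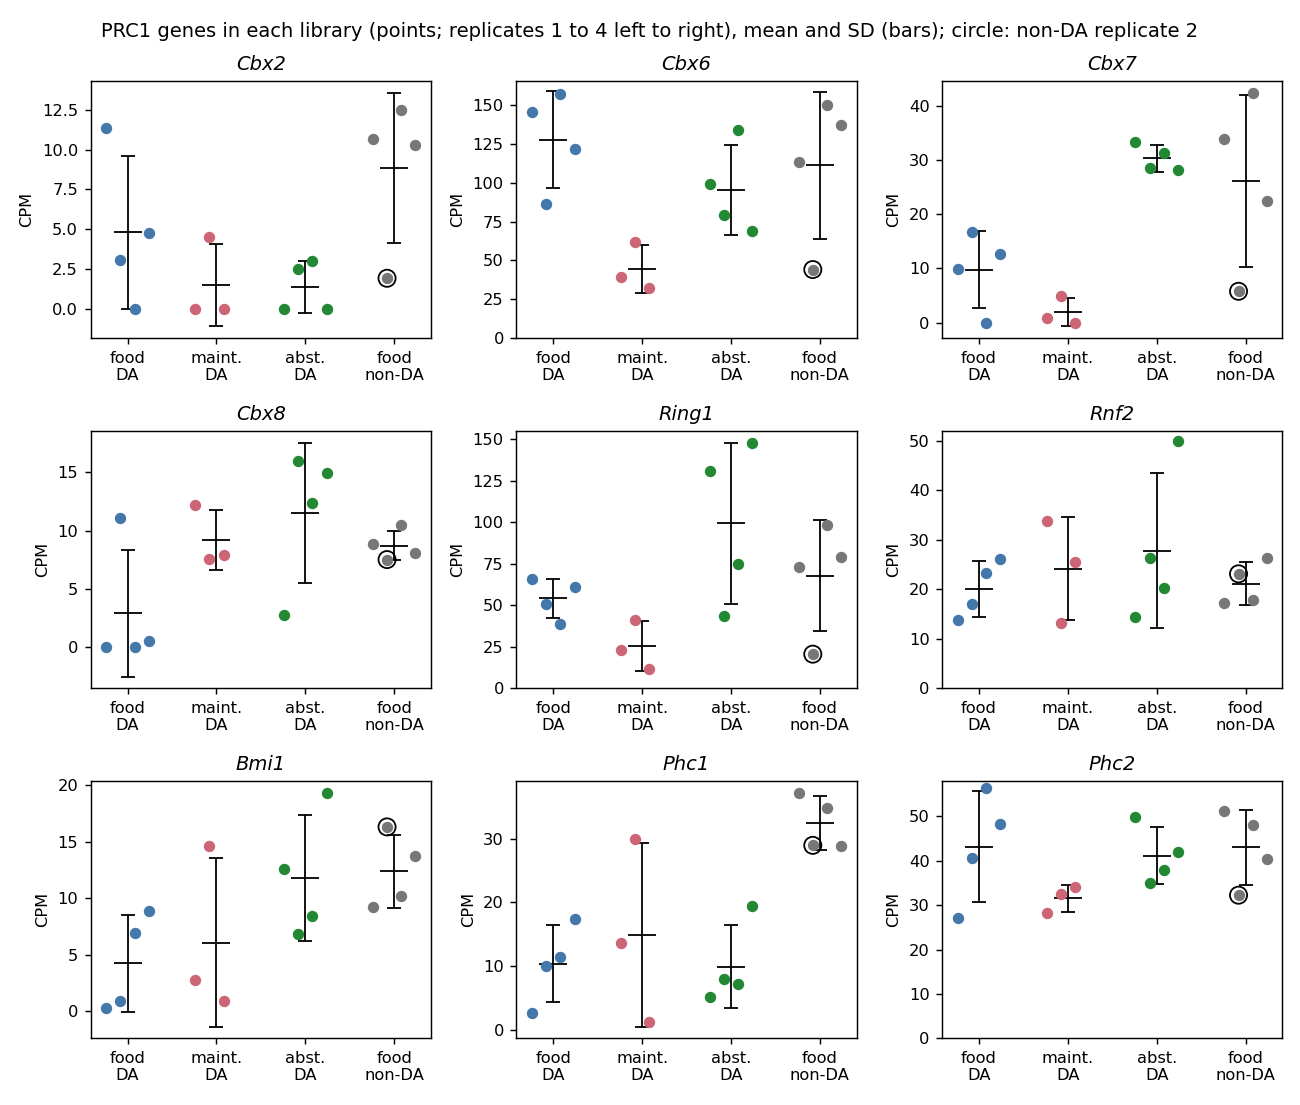
Level of each PRC1 gene in CPM (vertical axis, linear) in each of the 15 libraries (points, replicates 1 to 4 from left to right), with mean and SD per group; the open circle marks non-dopaminergic replicate 2. Cbx6 was lower in all 3 maintenance libraries (at most 61.8 CPM) than in any food-trained dopaminergic library (at least 86.5 CPM), and Cbx7 was higher in the 4 abstinence libraries than in any food-trained dopaminergic one.

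The first comparison set dopaminergic against non-dopaminergic nuclei of food-trained mice. The clearest difference was in Phc1, which encodes a polyhomeotic subunit of canonical PRC1. It stood at 2.7, 9.96, 11.5 and 17.4 CPM in the dopaminergic libraries and at 37.2, 29.0, 34.9 and 28.9 CPM in the non-dopaminergic ones. Every dopaminergic library was below every non-dopaminergic one, and the log2 fold change was -1.67 with SE 0.51 (adjusted p 0.0686, edgeR), short of the threshold of 0.05. It passed with the DESeq2 test (adjusted p 0.0139) and with edgeR without dopaminergic replicate 1 (0.0273) or 4 (0.0313). It did not pass without any of the other 6 libraries (adjusted p 0.0763 to 0.184 with edgeR, 0.112 and a value of -1.73 without non-dopaminergic replicate 2), with the replicate block (0.149), with all 15 libraries in the fit (0.169) or with a term for the 4 libraries that stand apart (0.220). The related gene Phc2 had means of 43.1 ± 12.5 CPM in dopaminergic and of 43.0 ± 8.5 CPM in the other nuclei (SD, n = 4 each), with a log2 fold change of -0.02 (SE 0.28), whose sign changed with the scaling of the libraries.

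Bmi1, the PCGF subunit that stimulates the RING enzyme, was the other member whose groups did not overlap, with dopaminergic libraries at 0.279, 0.926, 6.94 and 8.85 CPM and non-dopaminergic ones at 9.26, 16.3, 10.2 and 13.7 CPM. The first 2 dopaminergic libraries held 16 and 32 counts of it. Its log2 fold change was -1.56 with SE 0.99 (adjusted p 0.396, edgeR). Cbx7 was at 9.80 ± 7.10 against 26.1 ± 15.8 CPM (-1.44 on the log2 scale, SE 1.23), Cbx8 at 2.88 ± 5.46 against 8.71 ± 1.28 CPM (-1.63, SE 1.83), and Cbx2 at 4.81 ± 4.81 against 8.85 ± 4.72 CPM (-0.91, SE 1.33). The catalytic subunits had values nearer 0, with -0.35 (SE 0.43) for Ring1 and -0.10 (SE 0.34) for Rnf2, and Cbx6 had 0.17 (SE 0.37) on the log2 scale. Without non-dopaminergic replicate 2 the values were -0.66 for Ring1 (unadjusted p 0.0259, adjusted p 0.141 with edgeR), -0.060 for Rnf2, -0.096 for Cbx6, -1.78 for Cbx7, -1.70 for Cbx8, -1.24 for Cbx2, -1.41 for Bmi1 and -0.14 for Phc2. Without non-dopaminergic replicate 3 the value of Ring1 was -0.084. Leaving out dopaminergic replicate 4 gave -2.22 for Bmi1, and leaving out dopaminergic replicate 1 gave -1.78 for Cbx2.

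Over the 9 members 0 passed in this comparison with edgeR, where 12.8% of 19786 genes (2534) did. With DESeq2 1 member passed, among 3883 genes called. In edgeR 1 member had an unadjusted p under 0.05, where 24.3% of genes did, and 2 members lay wholly lower in dopaminergic nuclei, where 19.1% of genes did. The members' median log2 fold change was -0.91, against -0.21 over all genes tested. Without non-dopaminergic replicate 2, 4 members lay wholly lower (Cbx7, Ring1, Bmi1 and Phc1), against 22.8% of genes. With the replicate number as a block, which paired samples of the 2 populations, 775 genes passed in place of 2534, 0 of them members. Of the markers of oligodendrocytes, astrocytes and microglia, 7 of 7, 3 of 5 and 5 of 5 had a log2 fold change below 0, with summed levels of 1662 to 2621 against 8317 to 21500 CPM, 380 to 738 against 1054 to 2539 CPM and 239 to 394 against 824 to 1217 CPM, and no marker of these lists was at 0 throughout either group. Of the GABA neuron markers 2 of 3 were wholly lower with an unadjusted p under 0.05, at 163 to 219 against 191 to 259 CPM in sum. The part of these markers in the difference of Phc1 was not tested.

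**Figure D2:**
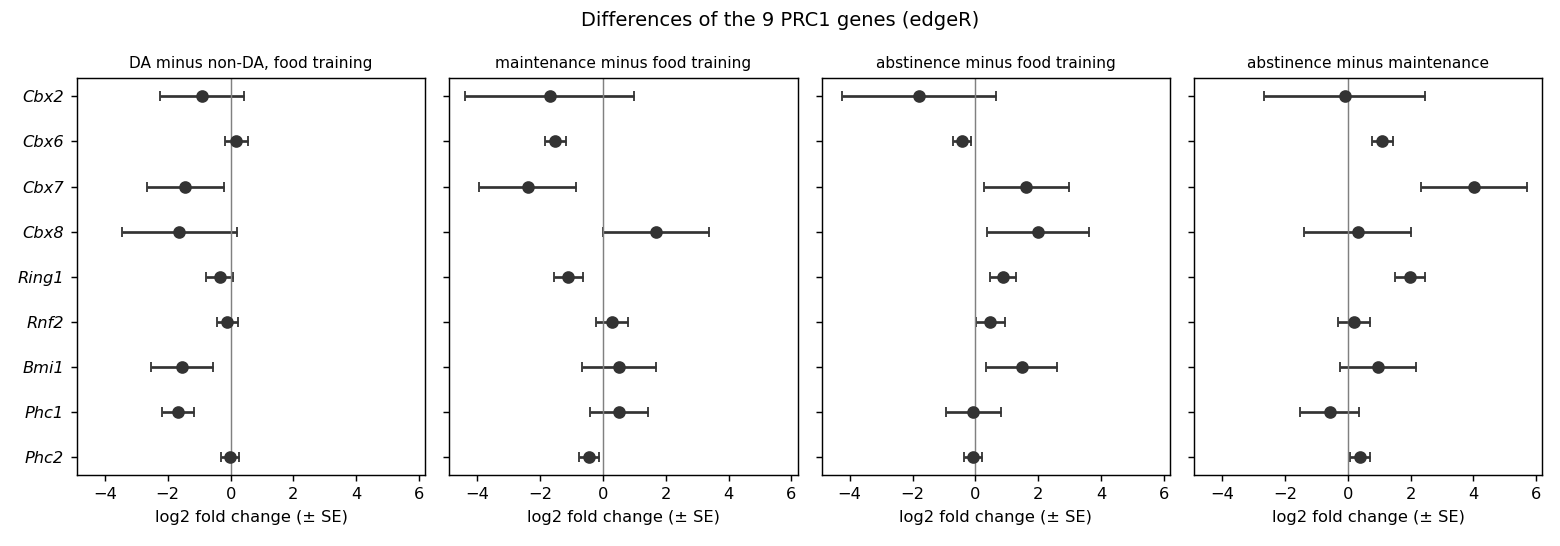
Log2 fold change of each PRC1 gene (horizontal axis, point with SE from edgeR) in the 4 comparisons; the vertical line marks 0. Phc1 at -1.67 has an SE of 0.51 in the comparison of populations, Cbx6 at -1.52 an SE of 0.33 at maintenance, and Cbx2, Cbx7 and Cbx8 have the widest bars.

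At maintenance, Cbx6, a chromobox gene that brain expresses strongly, had the lowest p among the members. It stood at 39.4, 61.8 and 32.3 CPM in the 3 maintenance libraries and at 146, 86.5, 157 and 122 CPM after food training. The groups did not overlap, and the log2 fold change was -1.52 with SE 0.33 (adjusted p 0.0995, edgeR). It did not pass the threshold with edgeR in any fit that left out a library (adjusted p from 0.0552, without maintenance replicate 2, to 0.362), and it passed with the DESeq2 test (adjusted p 0.000315). Ring1 stood at 22.9, 41.3 and 11.7 CPM at maintenance and at 65.8, 51.0, 38.9 and 60.9 CPM after food training. Its groups overlapped through maintenance replicate 2, and it had a log2 fold change of -1.10 with SE 0.47 (adjusted p 0.401, edgeR).

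Cbx7 was scarce at maintenance, at 0.805, 4.86 and 0 CPM (39, 161 and 0 counts), and after food training it stood at 9.85, 16.6, 0 and 12.7 CPM. The 0 of food-trained replicate 3 made the groups overlap, and the log2 fold change was -2.39 with SE 1.54 (adjusted p 0.632, edgeR). Without maintenance replicate 2 it was -4.61. Phc2 had 28.1, 32.5 and 34.0 CPM at maintenance, within the food-trained range of 27.1 to 56.4 CPM, and its log2 fold change was -0.45 (SE 0.32). The members with a value above 0 were Cbx8 (1.68, SE 1.69), Phc1 (0.52, SE 0.93), Bmi1 (0.51, SE 1.2) and Rnf2 (0.28, SE 0.50), and that of Cbx2 was -1.69 (SE 2.7). Maintenance replicate 2 was the only library of its stage with counts of Cbx2, and without it the fitted value was -10.77, which depends on the prior count and is no bound. For Bmi1 and Phc1 a single library set the sign: without maintenance replicate 2, which held 14.6 and 30.0 CPM of them, the values were -1.23 and -0.51.

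Over the 9 members 0 passed with edgeR at maintenance, where 0.131% of 19060 genes (25) did. With DESeq2 1 member passed, among 894 genes called. In edgeR 2 members had an unadjusted p under 0.05, where 11.6% of genes did, and 1 member lay wholly lower, where 4.21% of genes did. The members' median log2 fold change was -0.45, and that of all genes -0.01.

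Non-dopaminergic replicate 2, from mice that had no cocaine, was also low in Cbx6, Ring1, Cbx7 and Cbx2. It held 44.1 CPM of Cbx6 where the other 3 libraries of its group held 113 to 150 CPM, 20.6 CPM of Ring1 against 73.2 to 98.5 CPM, 5.78 CPM of Cbx7 against 22.5 to 42.5 CPM and 1.93 CPM of Cbx2 against 10.3 to 12.5 CPM. In all, 6 of 9 members were below the other 3 libraries in it, where 27.6% of 21812 genes were, and 1 was above (Bmi1), where 36.3% were. The GC content of the longest transcript was 53.1% to 60.4% in 7 members, against a median of 49.5% over the tested genes. Of these 7, 5 had a value below 0 at maintenance and 6 were low in non-dopaminergic replicate 2. Rnf2 and Bmi1, at 39.5% and 40.2% GC, were in neither set.

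These libraries were then entered in the fit in other ways. With each library's slope on GC removed, the maintenance value was -1.32 for Cbx6 (edgeR adjusted p 0.194), -0.83 for Ring1, -2.18 for Cbx7, -1.39 for Cbx2, 1.79 for Cbx8, 0.65 for Phc1, -0.066 for Phc2, 0.23 for Bmi1 and -0.073 for Rnf2. With a term for the 4 libraries that stand apart, in a fit of all 15, it was 0.074 for Cbx6, 0.92 for Ring1, 0.13 for Cbx7, 0.85 for Cbx2, 1.96 for Cbx8, 0.74 for Phc1, 0.081 for Phc2, -0.037 for Bmi1 and 0.097 for Rnf2. Only 1 library, non-dopaminergic replicate 2, informs that term, which assumes an equal shift in both populations. Among the 4 the only dopaminergic stage is maintenance, so no comparison of stages can be made within them. Comparisons of both cocaine stages use the same food-trained libraries. Oligodendrocyte markers stood at a summed 993 to 1607 CPM at maintenance against 1662 to 2621 CPM after food training, with 5 of 7 below 0 and 1 (Olig1) past the threshold. Of the GABA neuron markers 2 of 3 (Gad1 and Gad2) had values above 0 with an unadjusted p under 0.05, at a summed 164 to 347 CPM against 163 to 219 CPM. Microglia markers had 4 of 5 below 0, at 120 to 312 CPM against 239 to 394 CPM in sum. Of these 5, 1 was wholly higher and 0 were wholly lower, with 1 higher and 1 lower at an unadjusted p under 0.05 (edgeR). Astrocyte markers had 3 of 5 below 0, with 1 wholly higher and 1 wholly lower, at 368 to 613 CPM against 380 to 738 CPM. For dopamine neurons 2 of 8 markers were wholly lower, at 8067 to 9633 CPM against 6488 to 12307 CPM in sum. The part of these markers in the values of Cbx6 and Ring1 was not tested.

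**Figure D3:**
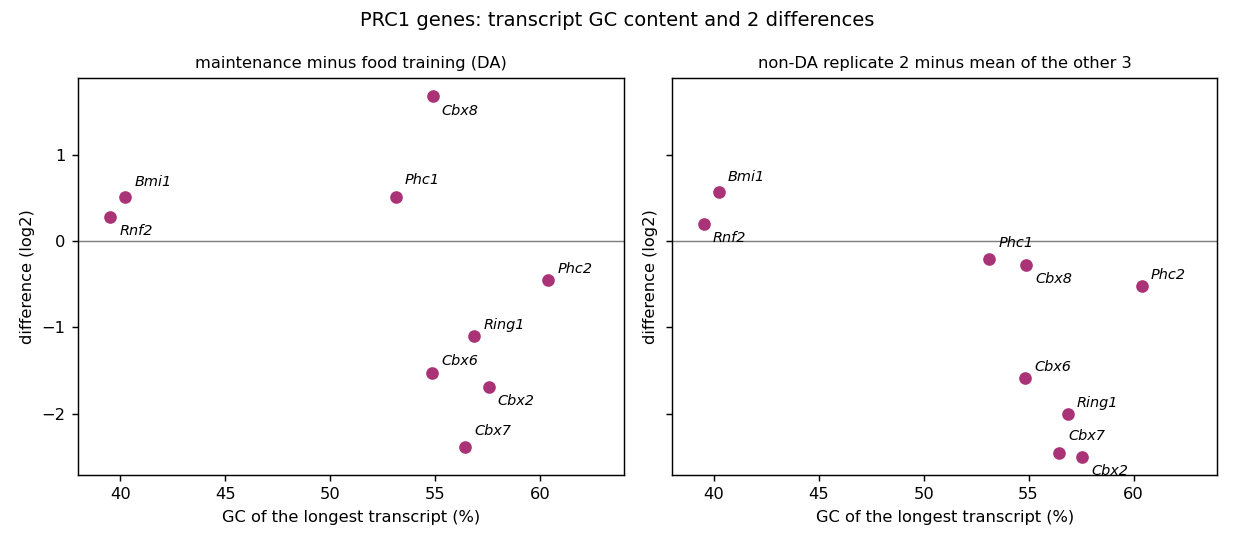
Each point is a PRC1 gene, placed by the GC content of its longest transcript (horizontal axis, percent) and by a log2 difference (vertical axis), that of maintenance against food training in dopaminergic nuclei (left) and that of non-dopaminergic replicate 2 against the mean of the other 3 libraries of its group (right). Cbx2, Cbx6, Cbx7 and Ring1 lie below -1 in both panels, and Rnf2 and Bmi1 lie above 0 in both.

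After 21 days of abstinence, Cbx7 stood out by its even level. This chromobox protein is known for holding the Cdkn2a locus silent in dividing cells. The 4 abstinence libraries held 33.4, 28.5, 31.2 and 28.2 CPM (1159 to 1720 counts), and each was higher than every food-trained library, which held 0 to 16.6 CPM (0 to 585 counts). The log2 fold change against food training was 1.63 with SE 1.34 (adjusted p 0.999974, edgeR), and it stayed between 1.21 and 2.00 when any library was left out. Without food-trained replicate 3, the library at 0 counts, it was 1.21. Of the 9 members 1 was wholly higher, where 2.37% of 19060 genes were, and 0 passed the threshold, where 0.0% of genes did (unadjusted, 0 members and 4.3% of genes had a p under 0.05, and DESeq2 called 125 genes, 0 of them members).

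Ring1 had 131, 43.8, 75.2 and 148 CPM at abstinence and overlapped with food training, with a log2 fold change of 0.88 with SE 0.42 (adjusted p 0.999974, edgeR). Abstinence replicates 1 and 4 were the high ones. Bmi1 was at 11.8 ± 5.57 against 4.25 ± 4.29 CPM (1.47 on the log2 scale, SE 1.13), and Cbx8 at 11.5 ± 6.05 against 2.88 ± 5.46 CPM (2.00, SE 1.62). Cbx6 was at 95.5 ± 28.8 against 128 ± 31.2 CPM, with a value of -0.42 (SE 0.29), and Cbx2 had -1.80 (SE 2.44). Phc1, Phc2 and Rnf2 had values of -0.06 (SE 0.86), -0.07 (SE 0.29) and 0.47 (SE 0.47). Without abstinence replicate 4 the value of Rnf2 was 0.019. The members' median log2 fold change was 0.47, against 0.04 over all genes. Of the cell type markers 8 of 8 of dopamine neurons were below 0 (5692 to 8805 against 6488 to 12307 CPM in sum), 3 of 3 of GABA neurons above 0 (199 to 406 against 163 to 219 CPM) and 5 of 7 of oligodendrocytes below 0 (1077 to 1949 against 1662 to 2621 CPM), and their part in the values of Cbx7 and Ring1 was not tested.

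Abstinence was also compared with maintenance, which uses the same maintenance libraries again. Ring1 was higher at abstinence in every library, by a log2 fold change of 1.98 with SE 0.48 (adjusted p 0.161, edgeR), and so were Cbx6 by 1.10 with SE 0.33 (adjusted p 0.278, edgeR), Cbx7 by 4.02 with SE 1.68 (adjusted p 0.482, edgeR) and Phc2 by 0.38 with SE 0.32 (adjusted p 0.877, edgeR). These 4 members were wholly higher, where 7.56% of 19060 genes were. In edgeR 0 members passed, where 0.178% of genes did, with 3 members and 9.92% of genes reaching an unadjusted p under 0.05. With DESeq2 2 members passed, Ring1 (adjusted p 0.00254) and Cbx6 (0.0427), among 732 genes called. With the term for the 4 libraries that stand apart, the values were -0.045 for Ring1, -0.49 for Cbx6, 1.5 for Cbx7 and -0.15 for Phc2, and with the GC correction they were 1.73, 0.88, 3.79 and -0.030. Without maintenance replicate 2 the value of Cbx7 was 6.23. Of the oligodendrocyte markers 5 of 7 had values above 0, 3 of them with an unadjusted p under 0.05 and 1 (Olig1) past the threshold, at a summed 1077 to 1949 CPM against 993 to 1607 CPM at maintenance, and their part in the members' values was not tested. The remaining values were 0.96 (SE 1.22) for Bmi1, 0.32 (SE 1.70) for Cbx8, 0.19 (SE 0.51) for Rnf2, -0.10 (SE 2.56) for Cbx2 and -0.58 (SE 0.93) for Phc1. Without maintenance replicate 2 those of Bmi1 and Phc1 were 2.69 and 0.44. When all 3 stages were tested at once, the lowest edgeR adjusted p among the members were those of Cbx6 (0.247) and Ring1 (0.314), and 0.0839% of genes passed.

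Ratios between related genes within a library do not depend on how libraries are scaled. The ratio of Cbx7 to Cbx6, as counts per kb of transcript, was 0.435, 0.464, 0.302 and 0.531 at abstinence. After food training it was 0.0876, 0.249, 0 and 0.136, and at maintenance 0.0265, 0.102 and 0. Every abstinence library was above every other dopaminergic library, and non-dopaminergic libraries ran from 0.170 to 0.387, with replicate 2 the lowest. The ratio of Phc1 to Phc2 separated the populations, at 0.0933 to 0.337 in food-trained dopaminergic and 0.671 to 0.843 in non-dopaminergic libraries. At maintenance it spread from 0.0335 to 0.867. The ratio of Ring1 to Rnf2 was 2.1 to 6.01 after food training, 0.573 to 3.92 at maintenance and 2.09 to 11.4 at abstinence, and in non-dopaminergic nuclei 1.12 in replicate 2 and 3.78 to 6.93 in the other 3. These ratios are descriptions, chosen after the values were seen.

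**Figure D4:**
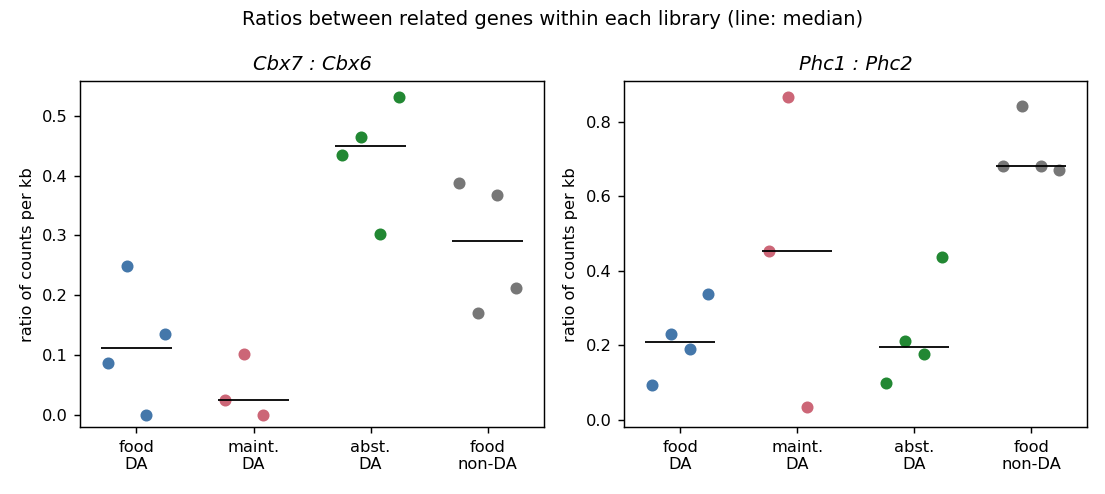
Ratio of counts per kb of transcript (vertical axis, linear) between Cbx7 and Cbx6 (left) and between Phc1 and Phc2 (right) in each library (points, replicates from left to right), with the group median as a line. The 4 abstinence libraries have Cbx7 to Cbx6 ratios of 0.302 or more, above every other dopaminergic library.

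The other genes of the pathway were read as 3 lists. Among 4 further subunits of canonical PRC1 (Pcgf2, Phc3, Scmh1 and Scml2), 0 passed the threshold in any of the 4 comparisons (12.8%, 0.131%, 0.0% and 0.178% of all genes did) and 0 had an unadjusted p under 0.05 (24.3%, 11.6%, 4.3% and 9.92% did). The median log2 fold change was -0.22 between populations, -0.12 at maintenance, 0.14 at abstinence and 0.12 between the last 2 stages. Among 23 subunits of variant PRC1, 1 was higher in dopaminergic than in non-dopaminergic nuclei past the threshold (3.63% of all genes were) and 0 were lower (9.17% were). It was Skp1a, an adaptor shared with SCF ubiquitin ligases, at 148 ± 27.1 against 52.2 ± 4.81 CPM (1.48 on the log2 scale, SE 0.18, and adjusted p 0.00427 by edgeR). Pcgf1, the PCGF subunit of the KDM2B complex, was at 32.8 ± 12.4 against 18.7 ± 1.83 CPM (0.79 on the log2 scale, SE 0.32), and Fbrsl1 at 19.3 ± 6.0 against 43.7 ± 14.1 CPM (-1.20, SE 0.35, edgeR adjusted p 0.055).

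In the comparisons of stages 0 of these 23 passed, where at most 0.178% of all genes did. At maintenance 5 of 23 had an unadjusted p under 0.05, where 11.6% of genes did, namely Max, Pcgf3, Skp1a and Dcaf7 with values below 0 and Csnk2a1 above it. The 4 below 0 and Bcorl1 were wholly lower there, 5 of 23, where 4.21% of genes were (Max, Pcgf3, Dcaf7 and Bcorl1 are named after their values were seen). The median log2 fold change of the 23 was -0.31 at maintenance, -0.06 at abstinence and 0.13 between those stages. Of 7 genes for enzymes that remove ubiquitin from H2A, which oppose PRC1, 0 passed in any comparison (the shares of all genes are those given for the canonical subunits). At maintenance, and again at abstinence against maintenance, 3 of the 7 had an unadjusted p under 0.05, where 11.6% and 9.92% of genes did. Usp21, a deubiquitinase, stood at 19.9, 16 and 15.0 CPM at maintenance and 34.9, 52.2, 31.8 and 73.8 CPM after food training (-1.5 on the log2 scale, SE 0.40, and adjusted p 0.195 by edgeR). Bap1, the catalytic subunit of the complex that removes H2A ubiquitin, was at 23.6 ± 4.86 against 55.8 ± 18.6 CPM (-1.24, SE 0.35, edgeR adjusted p 0.221). Both were wholly lower at maintenance, 2 of 7 where 4.21% of genes were, and at abstinence they stood at 43.8 ± 17.4 and 52.0 ± 14.5 CPM. Asxl2, a partner of Bap1, went the other way, at 165 ± 25.8 against 110 ± 11.8 CPM (0.59, SE 0.22, edgeR adjusted p 0.376), as did Csnk2a1, a casein kinase subunit of variant PRC1, at 219 ± 22.3 against 123 ± 46.1 CPM (0.83, SE 0.31, edgeR adjusted p 0.377). From maintenance to abstinence the log2 values were 1.37 for Usp21 (SE 0.40), 1.14 for Bap1 (SE 0.35) and -0.79 for Asxl2 (SE 0.22), with edgeR adjusted p of 0.277, 0.303 and 0.235. With the GC correction the maintenance values against food training were -1.18 for Usp21, -1.09 for Bap1, 0.34 for Asxl2, 0.65 for Csnk2a1 and -0.95 for Skp1a, and with the term for the 4 libraries they were -0.43, 0.39, -0.039, 0.20 and -0.95. From maintenance to abstinence Usp21, Bap1 and Asxl2 had 1.05, 0.95 and -0.53 with the correction and 0.29, -0.49 and -0.16 with the term. Of the other 4 variant subunits named, the term gave 0.068 for Max, -2.49 for Pcgf3, -0.14 for Dcaf7 and -1.11 for Bcorl1 at maintenance. Non-dopaminergic replicate 2 was on the side of the maintenance libraries for Usp21, Bap1, Asxl2 and Csnk2a1 but not for Skp1a. Skp1a was wholly lower at maintenance (-0.81, SE 0.28) and at 56.1 CPM in this library, within the 46.5 to 56.3 CPM of the others. Replicate 2 was below the other 3 libraries of its group for Usp21 (32.8 against 64.4 to 73.3 CPM, 57.8% GC) and Bap1 (18.5 against 49.6 to 66.0 CPM, 53.8% GC). It was above them for Asxl2 (176 against 108 to 122 CPM, 41.7% GC) and Csnk2a1 (275 against 166 to 193 CPM, 44.0% GC).

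**Figure D5:**
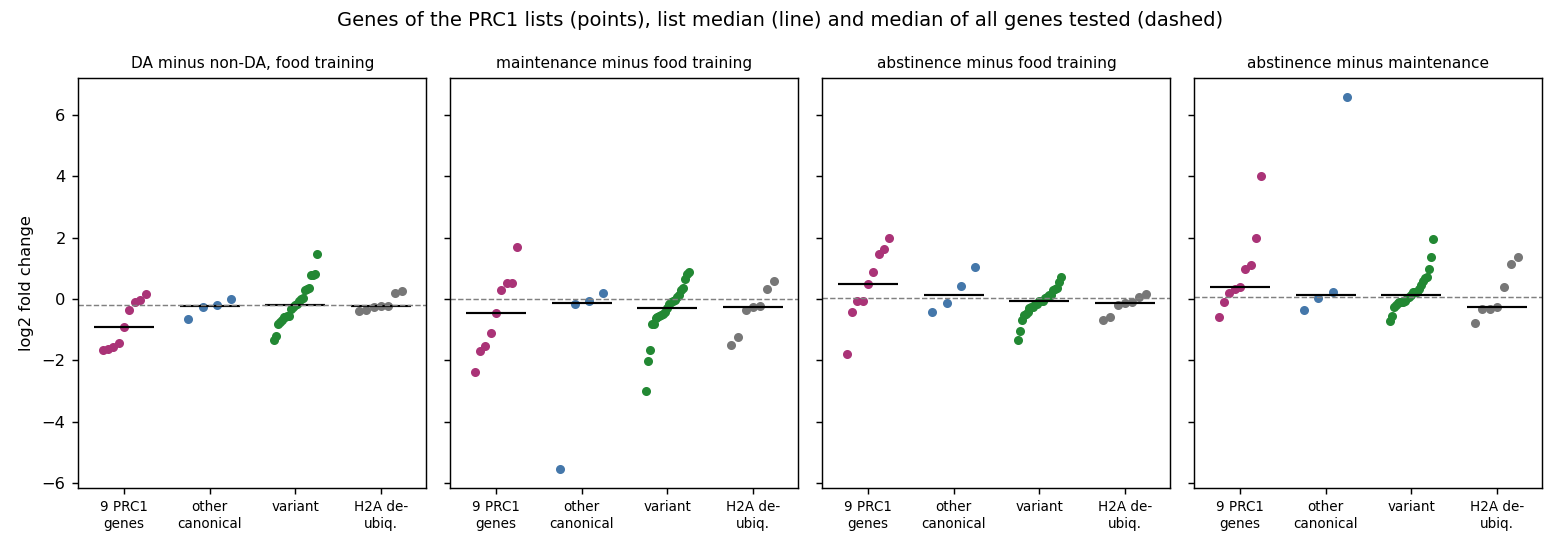
Log2 fold change (vertical axis) of each gene of the 9 PRC1 genes, the 4 other subunits of canonical PRC1, the 23 subunits of variant PRC1 and the 7 genes for enzymes that remove H2A ubiquitin, in the 4 comparisons; points are genes in order of value, lines list medians and the dashed line the median of all genes tested. The medians of the 9 genes are -0.91, -0.45, 0.47 and 0.38 from left to right, and the lowest point at maintenance is Scml2 at -5.54.

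Genes that PRC1 is known to hold silent were nearly absent in every group. Of 49 textbook targets, which are Hox genes with Cdkn2a, Cdkn2b and developmental transcription factors, 28 had 0 counts in all 15 libraries. Their summed level was 0 to 21.0 CPM after food training, 1.61 to 5.85 CPM at maintenance and 0.556 to 11.3 CPM at abstinence in dopaminergic nuclei, and 15.8 to 21.0 CPM in non-dopaminergic nuclei. A mean of at least 1 CPM was reached by 2, 2 and 1 of them in these dopaminergic groups and by 7 in non-dopaminergic nuclei. Between stages 4 were abundant enough to test and 0 passed. Between populations 10 passed the filter. Among them was Sox17, a transcription factor of endothelium and endoderm, at 0 counts in all 4 food-trained dopaminergic libraries and at 3.81 ± 1.58 CPM in non-dopaminergic nuclei. It could pass the filter only through the latter group, so no test of it is given. The summed level of 3 vascular markers ran from 0 to 27.5 CPM in food-trained dopaminergic libraries and from 34.2 to 57.5 CPM in non-dopaminergic ones, and its part in the value of Sox17 was not tested. The most abundant others were Pax7, whose food-trained means were 2.46 ± 2.16 CPM (dopaminergic) and 1.4 ± 0.487 CPM (non-dopaminergic), Pax8 at 0.713 ± 1.27 and 2.35 ± 0.793 CPM, Hoxc4 at 0.0435 ± 0.087 and 2.12 ± 1.19 CPM, Hoxb2 at 0.959 ± 1.42 and 1.70 ± 1.37 CPM, and Hoxd3 at 0.929 ± 1.86 and 1.35 ± 0.777 CPM.

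The genes most alike in pattern were found by the root mean square difference of log2 CPM over the 15 libraries, each gene centred on its mean, among 14748 genes. For Cbx6 they were Zbtb7a (0.302), Ankrd13d (0.322) and Jun (0.326), where the median gene was at 1.10. Like Cbx6 these 3 were lowest at maintenance, with Jun at a mean of 14.1 CPM there and 45.8 CPM after food training. For Phc1 they were Atg14 (0.648), Per2 (0.767) and Rapgef1 (0.774), with the median gene at 1.65, and all 3 had their highest mean in non-dopaminergic nuclei. Both sets were picked by likeness over these same 15 libraries, so the shared lows and highs follow from the choice.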

How the data were processed

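The authors deposited whole-number counts per gene for 15 libraries, made from sorted nuclei with a low-input cDNA kit per the labels' protocols; the counts carry no molecular identifiers. Per the submitters' processing notes, Trim Galore 0.6.7, cutadapt 1.18, STAR 2.7.10a, StringTie 2.1.5 and DESeq2 1.38.3 were used, with no roles given; annotation and use of strand are not given in the sources used here. A second deposited table, named as normalized, repeated 10 columns of these counts with 0 differing cells and was not used.

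Testing used edgeR 4.0.16 on limma 3.58.1 under R 4.3.3: genes kept by filterByExpr, TMM scaling, two-sided quasi-likelihood F-test, Benjamini-Hochberg adjustment over all genes tested. The populations were compared in a fit of 8 libraries, the stages as contrasts in a fit of 11. SE is the log2 fold change divided by the root of F. DESeq2 1.42.0 was an alternative. Others were its size factors, no filter beyond 1 count, all 15 libraries or only 2 stages in the fit, a replicate block, a GC correction, a term for 4 libraries, and leaving out each library. Same-numbered samples of the populations deviated together weakly (r = 0.116 to 0.262 for the 4 pairs), and their numbers were taken to pair them. Differently numbered pairs ran from -0.184 to 0.146. The highest of those, dopaminergic 4 with non-dopaminergic 1, was above the same-numbered pairs 1 and 2 (0.116 and 0.127). Between stages same-numbered samples did not deviate together. The labels do not state the pairing.

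GC content and length are of the longest GENCODE M21 transcript (26763 symbols matched directly, 566 through a synonym, 8647 unmatched). Slopes on GC used the genes whose log2 CPM (prior count 2) averaged more than 4. Tables were drawn up in Python 3.11.15. The scripts were tested on simulated data.

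The members and lists were chosen with earlier results of these data known. Some genes of these lists are not reported here. All members are named. Of the other lists, those past the threshold are named, with the 2 upward and 2 downward of smallest p under 0.05 per comparison, and of the targets the 6 with the highest group mean. Counts allow a precision of counting error only; p-values measure the spread between pools of 2 mice.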

Additional observations from a re-analysis of the deposited data

Results flagged for a closer look

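Cbx8 in food-trained dopaminergic replicate 2 stood far from the rest of its group. It held 11.06 CPM (382 counts), where the other 3 libraries held 0, 0 and 0.457 CPM (0, 0 and 21 counts), and the gap made up 0.959 of the group's range, over Dixon's critical value for 4 samples. Without this library the log2 fold change of Cbx8 was -5.80 between populations and 5.85 at maintenance and 6.19 at abstinence against food training, none past the threshold with edgeR. Of the 27 sets of 4 values tested in this way this was the only one beyond the critical value, and chance gives about 1 in 20.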

How the results depend on the processing

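Leaving out 1 library at a time gave 1900 to 3740 genes past the threshold between populations (0 to 1 members), 5 to 78 at maintenance against food training, 0 at abstinence against food training and 6 to 73 at abstinence against maintenance (0 members in each comparison of stages). The DESeq2 test called 3883 genes between populations (1 member, Phc1), 894 at maintenance (1, Cbx6), 125 at abstinence against food training (0) and 732 at abstinence against maintenance (2, Cbx6 and Ring1). The replicate block gave 775, 0, 0 and 2 genes in that order, and block with GC correction 836 between populations. Between stages same-numbered samples did not deviate together, so there the numbers are shared in name only. The term for 4 libraries gave 965 genes between populations, 0 at maintenance and 1 at abstinence against maintenance. Fitting only the 2 stages compared gave 1 gene at maintenance and 22 at abstinence against maintenance, and fitting all 15 libraries gave 15 in the latter. No member passed with edgeR in any fit of all the libraries.

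Of 288 fold changes of members under other settings, 264 kept sign and side of the threshold, 4 became calls (all with DESeq2) and 20 changed sign. The DESeq2 test gave no p for Cbx8 in any of the 4 comparisons, so there Cbx8 is counted among the 264 by sign alone. Of 270 with 1 library left out, 246 kept both, 2 became calls (Phc1) and 22 changed sign. Between populations Phc2 was 0.012 with DESeq2's size factors and with its test, 0.003370 with all 15 libraries, 0.15 with the GC correction and 0.090 with GC correction and block, and Cbx6 was -0.063 with the term for 4 libraries. At maintenance Rnf2 was -0.073 with the GC correction, and with the term Cbx2 was 0.85, Cbx6 0.074, Cbx7 0.13, Ring1 0.92, Bmi1 -0.037 and Phc2 0.081. At abstinence against maintenance the block gave 1.55 for Cbx2, -0.67 for Cbx8 and -0.14 for Rnf2, the GC correction -0.030 for Phc2, and the term -0.49 for Cbx6, -0.045 for Ring1 and -0.15 for Phc2. The cause of these changes was not tested.

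With 1 library left out, signs changed in the ranges -0.15 to 0.15 (Phc2), -0.26 to 0.043 (Rnf2) and -0.10 to 0.38 (Cbx6) between populations, -0.045 to 0.55 (Rnf2), -1.23 to 1.17 (Bmi1) and -0.51 to 1.07 (Phc1) at maintenance, -0.62 to 0.30 (Phc1) and -0.24 to 0.087 (Phc2) at abstinence against food training, and -0.83 to 8.98 (Cbx2), -0.26 to 0.52 (Rnf2) and -1.14 to 0.44 (Phc1) at abstinence against maintenance. Ranges that kept their sign but were wide were -10.77 to -0.82 (Cbx2), -4.61 to -1.8 (Cbx7) and 1.27 to 5.85 (Cbx8) at maintenance, and -2.52 to -0.92 (Cbx2), 1.58 to 6.19 (Cbx8) and 1.08 to 2.12 (Bmi1) at abstinence against food training. Where a member had 0 counts in some libraries, as Cbx2, Cbx7 and Cbx8 did, the fitted size depends on the prior count and is no bound. The median of all genes between populations was -0.60 with the block and -0.21 without it.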
